A study of Mus musculus with 2 samples.

Results

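Macrophages that carry complement C1q and much MHC class II transcript were described in single-cell RNA-seq of dorsal root ganglia (DRG), the ganglia that hold the cell bodies of sensory neurons. The 2 samples were L4 and L5 DRG of naive wild-type C57BL/6 female mice of 3 months, replicates 1 and 2, with no injury, drug or transgene in either. The ganglia were dissociated with papain and collagenase and live cells were sorted before loading on the 10x Chromium system, so the cells had been through enzymes and a sorter, and leukocytes were not enriched. The study treats them as biological replicates, and how many animals each held is not given in the sources used here. The p-values rest on the spread between these 2 samples within each cell set described below. That spread was estimated in 1 fit shared by all cell sets. Members were chosen in each sample among droplets with over 300 genes, at least 1000 UMIs (unique molecular identifiers, counted RNA molecules) and a mitochondrial share of up to 22%. They held at least 5 UMIs and at least 20 UMIs per 10000 of C1qa, C1qb and C1qc together, less than 30 per 10000 of the satellite glial cell (SGC) gene Fabp7, and no more than 2 UMIs of any of Ncmap, Scn7a, Col1a1, Rgs5 and Flt1. Of these C1q macrophages, the cells above their sample's median of Cd74, H2-Aa, H2-Ab1 and H2-Eb1 UMIs per 10000 were kept, so members were selected on the measured counts of these 13 genes.

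This gave 92 cells in replicate 1 and 72 in replicate 2, in all 164 of 330 C1q macrophages and of 16882 cells within the quality limits. They are called higher MHC II cells below. The 93 and 73 C1q macrophages at or below the median are called lower MHC II cells. A separate set held leukocytes with little C1q, 38 and 48 cells with at least 2 UMIs of the leukocyte gene Ptprc, and the remaining cells, 8087 and 8254, had no Ptprc UMI and little C1q. A further 125 cells fell in none of these sets. No cell barcode was shared between the libraries among the 330 C1q macrophages, which came to 0 shared barcodes, whereas 39 were shared among all cells within the limits. The libraries held 119101743 and 128668771 UMIs, and the summed profile of the higher MHC II cells held 989971 UMIs in replicate 1 and 827407 in replicate 2.

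Macrophages of the ganglion lie between and around the neurons and their glia, clear debris, and respond to nerve injury. C1q, the recognition unit of the classical complement pathway, is made in many tissues chiefly by resident macrophages. MHC class II molecules, made of an alpha and a beta chain that assemble on the invariant chain Cd74, display peptides from engulfed protein to CD4 T cells, and the H2-M proteins exchange the remnant of the invariant chain for such a peptide. Ciita, the class II transactivator, switches the class II genes on together.

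The values that chose the cells are given as a description. The sum of the 4 MHC II genes had its median at 438 UMIs per 10000 in replicate 1 and 497 in replicate 2. The cell just inside stood at 444 and 500.2, and the cell just outside was the median cell itself. In each sample 31 cells lay within 10% of the median, so the 2 sets are ranges of this score, and no cell type is named from them. In the higher MHC II cells the score ran from 444 to 909 in replicate 1 (median 592) and from 500.2 to 958 in replicate 2 (median 626). In the lower MHC II cells it ran from 0 to 438 (median 174) and from 1.11 to 497 (median 352), and 25 of the 185 C1q macrophages of replicate 1 but 5 of the 145 of replicate 2 stood under 20. The tail of very low cells was thus longer in replicate 1.

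**Figure D1:**
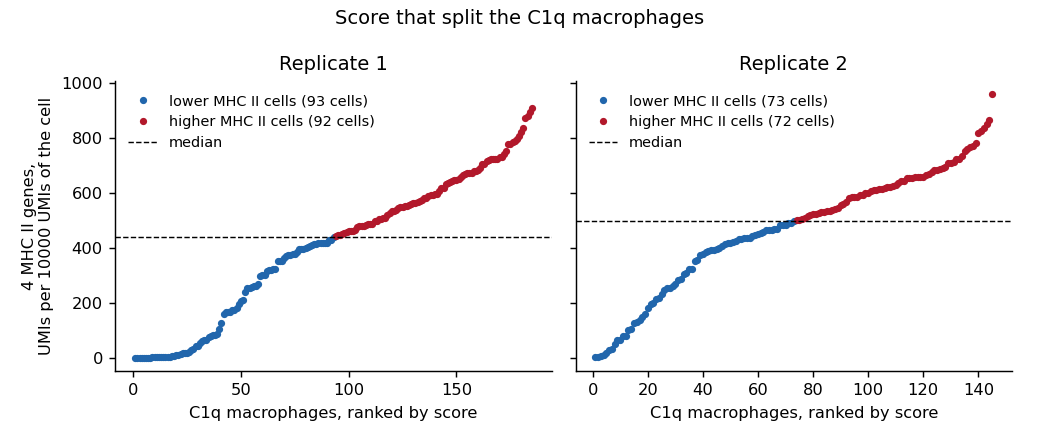
Sum of Cd74, H2-Aa, H2-Ab1 and H2-Eb1 UMIs per 10000 UMIs (vertical axis) for every C1q macrophage of replicates 1 and 2, with cells in order of the score and the sample's median marked. The score rises without a gap through the medians of 438 and 497, and replicate 1 holds more cells near 0.

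In depth and quality the 2 sets were close. Median UMIs per cell were 10660 and 10514 in the higher MHC II cells (replicates 1 and 2) and 11246 and 10687 in the lower MHC II cells. Median C1q levels, which the rule required to be present but did not split, were 106 and 108 per 10000 in the higher and 112 and 105 in the lower MHC II cells. Mitochondrial shares had medians of 2.77% and 2.40% against 3.23% and 2.78%.

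The label of macrophage was compared with genes that the rule did not use. Both other sets had been chosen for little C1q, and the remaining cells also for no Ptprc UMI. C1q macrophages were thus kept out of them, and the counts below describe the label without testing it independently. Of 20 macrophage identity genes, 19 were higher in the higher MHC II cells than in the remaining ganglion cells and 17 were higher than in the leukocytes with little C1q, at an adjusted p under the threshold of 0.05 in edgeR's quasi-likelihood test with Benjamini-Hochberg adjustment over all genes. The background in these comparisons was 18.4% of 19075 genes higher than in the remaining cells and 7.0% higher than in the leukocytes. Csf1r, the receptor for the growth factor that keeps macrophages alive, stood at 867 and 865 CPM (UMIs of a gene relative to the size of the profile, scaled by edgeR's TMM factors) in the higher MHC II cells of replicates 1 and 2, at 64.5 and 68.9 CPM in the leukocytes with little C1q and at 0.448 and 0.518 CPM in the remaining cells. Both samples of the macrophages were above both samples of either other set, with a log2 difference of 3.69 ± 0.18 (SE, n = 2 samples, adjusted p = 1.2e-10, edgeR) against the leukocytes. Apoe, a lipid carrier that DRG glia also make in large amounts, was the 1 identity gene not higher than in the remaining cells: it stood at 30302 and 24339.9 CPM in the higher MHC II cells and 33708 and 33066 in the remaining cells, which did not differ past the threshold (log2 difference -0.29 ± 0.14, SE, adjusted p = 0.102, edgeR). Against the leukocytes, Laptm5 and Cd53 did not pass and Itgb2, a chain of leukocyte integrins, was lower, at 58.1 and 75.0 CPM against 155 and 127 CPM (log2 difference -1.08 ± 0.19, SE, adjusted p = 0.000561, edgeR).

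Markers of other leukocytes were present to different extents. Of 13 T and NK cell markers, 11 had no UMI in the higher MHC II cells, Cd3e and Trac among them, and the list summed to 0 and 13.9 CPM. Of 9 B cell markers, 5 had no UMI, among them Cd79a and Ms4a1, and the list summed to 256 and 264 CPM with Ighm as the gene with most UMIs. Of 7 neutrophil markers, 3 had no UMI (Retnlg, Ly6g, Mmp9), and the list summed to 93.7 and 81.9 CPM against 13283 and 6365 in the leukocytes with little C1q. Of the 7 mast cell markers, 4 were without a UMI. Dendritic cells, which also carry class II, were the type the gate could hold most readily. Flt3, the receptor that marks conventional dendritic cells, had 12 UMIs in 9 cells of replicate 1 and 13 UMIs in 11 cells of replicate 2, against 3 UMIs in 3 cells in each replicate of the lower MHC II cells; this difference missed the threshold (adjusted p = 0.0965, edgeR) and passed it with replicate as a block (adjusted p = 0.00588; 3 of 21 alternatives in all, adjusted p up to 1.0). Xcr1 had 0 and 1 UMI, Clec9a 1 and 4, and Ccr7 none in the higher MHC II cells. In all, 9 of 92 and 17 of 72 higher MHC II cells held a UMI of a defining marker of another leukocyte type, against 3 of 93 and 5 of 73 lower MHC II cells.

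RNA of ganglion glia was less abundant in the higher MHC II cells. The score divides MHC II UMIs by all UMIs of a cell, so glial RNA in a cell lowers its score. The difference in glial RNA is thus not independent of the split, and the part of the split in it was not tested. Glial markers summed to 453 and 587 CPM in the higher MHC II cells, 1762 and 2316 in the lower MHC II cells, and 12400 and 11931 in droplets with too few UMIs to hold a cell. This RNA was concentrated in few cells: 9 of 93 and 8 of 73 lower MHC II cells held 50 or more UMIs of glial markers and carried 73.4% and 75.1% of the glial UMIs of their set, whereas 0 of 92 and 1 of 72 higher MHC II cells did. These glia-rich cells also had more UMIs, with medians of 20874 and 21688.5 in the lower MHC II cells. No doublet caller was run. Because the glia-rich cells stood almost entirely on one side of the split, the comparison of the 2 sets was also made without them, with the median taken again after their removal (88 against 88 and 68 against 68 cells); that alternative was chosen after the data were seen.

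Higher and lower MHC II cells were then compared for the genes that the split had not used. The higher MHC II cells had 397 genes at higher levels (2.08% of the 19076 genes in the test) and 381 at lower levels (2.00%), at an adjusted p under 0.05. Among the 8546 genes that reached 10 UMIs in 2 or more of the 4 profiles, these were 387 (4.53%) and 350 (4.10%). These shares are the background for every list count of this comparison below. A list with 1 or 2 calls is not read as differing from them. Without the glia-rich cells 78 genes (0.409%) were higher and 42 (0.220%) lower, of which 75 and 31 had the same call before. Many of the genes called higher with all cells encode ribosomal proteins. Examples are Rpl7 (log2 difference 0.47, and 0.28 without the glia-rich cells) and Rps4x (0.62, and 0.38 without). None of these ribosomal protein genes was called without the glia-rich cells. The difference or the call without the glia-rich cells is therefore given for the genes described in full. Over 2297 well expressed genes the median log2 difference was 0.21 with TMM scaling, -0.06 by UMI totals alone and 0.04 without the glia-rich cells, and all changes that follow are to be read against a shift of that size. By UMI totals alone 113 genes were higher and 543 lower, and on that scale 0 genes were higher in the lists of identity, microglia, phagocytic, class I, interferon and stress genes described below. With replicate as a block 542 were higher and 585 lower. That fit gave extremely small adjusted p for some genes held by few cells. For Retnla it was 1.32e-135 against 2.3e-05 without the block, and for Mmp12 4.99e-21 against 0.00582 (edgeR). A call made only with the block is therefore not taken as firm. Leaving out 1 of the 4 profiles gave fewer calls in every case: 92 higher and 101 lower without the higher MHC II cells of replicate 1, 60 and 163 without those of replicate 2, 162 and 258 without the lower MHC II cells of replicate 1, and 231 and 191 without those of replicate 2.

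**Figure D2:**
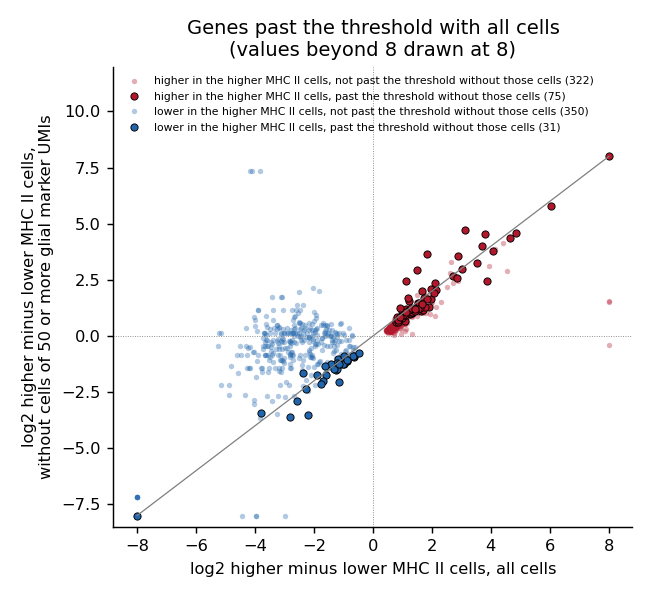
Log2 difference of higher minus lower MHC II cells for the genes called with all cells (horizontal axis; values beyond 8 drawn at 8) and without cells of 50 or more glial marker UMIs (vertical axis). Of the calls with all cells, 75 of 397 higher and 31 of 381 lower calls were also called without those cells.

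Some genes of the class II pathway outside the 4 used for the split were higher in the same cells. Of 17 such genes tested, 6 were higher, 0 lower and 11 did not pass, with a median log2 difference of 0.73, beside 0.00 over all genes tested and 0.21 over the well expressed ones. They were H2-DMa, H2-DMb1 and H2-DMb2, which encode the chains of H2-M, Ciita, the protease Ctss, which cuts the invariant chain, and the thiol reductase Ifi30, which opens disulfide bonds of engulfed protein. Without the glia-rich cells 4 of the 17 were higher. Leaving out 1 profile left between 3 (without the higher MHC II cells of replicate 2, or the lower MHC II cells of replicate 1) and 5.

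H2-DMa (chr17:34119541-34139101, GRCm38, plus strand) stood at 773 and 826 CPM in the higher MHC II cells of replicates 1 and 2 and at 301 and 346 CPM in the lower MHC II cells. All 92 and all 72 higher MHC II cells held a UMI of it, as did 77 of 93 and 69 of 73 lower MHC II cells. The CPM of the 2 sets did not overlap, and the log2 difference was 1.31 ± 0.14 (SE, adjusted p = 2.96e-05, edgeR), 1.07 without the glia-rich cells. H2-DMb1 (chr17:34153072-34160230, plus strand) stood at 805 and 873 CPM against 248 and 283 CPM, a log2 difference of 1.67 ± 0.18 (SE, adjusted p = 2.6e-05), 1.42 without the glia-rich cells. Both genes passed the threshold in each of 22 alternatives that were run, with adjusted p up to 0.0281 for H2-DMa and 0.0164 for H2-DMb1. Ciita (chr16:10480059-10528418, plus strand) stood at 186 and 229 CPM against 49.7 and 93.9 CPM, a log2 difference of 1.58 ± 0.21 (SE, adjusted p = 0.000214), 1.24 without the glia-rich cells; it passed in 21 of 22 alternatives and missed when each cell was thinned to 1000 UMIs. H2-DMb2 (chr17:34143307-34151555, plus strand) had 14 and 19 UMIs against 3 and 3 UMIs (adjusted p = 0.00955), and was called without the glia-rich cells (adjusted p = 0.026). Its call was lost without 3 of the 4 profiles (adjusted p up to 0.167), and 12 of 21 alternatives called it. It is a close copy of H2-DMb1, and reads of the more abundant H2-DMb1 could have been counted in it. Ciita and H2-DMb2 are named although they fall outside the rule for named genes, after their values were seen.

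Ctss stood at 2337 and 2477 CPM against 1740.1 and 1608 CPM (log2 difference 0.52 ± 0.13, SE, adjusted p = 0.0316, edgeR), and its call was lost without the glia-rich cells (0.22) and without any of the 4 profiles, with adjusted p up to 0.515. Ifi30 stood at 258 and 340.2 CPM against 127 and 169.6 CPM (1.02 ± 0.18, adjusted p = 0.00226), and its call was lost without the glia-rich cells (0.72), without the higher MHC II cells of replicate 2 (adjusted p = 0.131) and without the lower MHC II cells of replicate 1. H2-Oa and H2-Ob, the chains of H2-O, which holds H2-M back, had 10 and 10 UMIs against 2 and 5, and 20 and 16 against 8 and 9, and missed the threshold (adjusted p = 0.16 and 0.063). Costimulators missed it as well. Cd86 stood at 1502 and 1621 CPM against 1433 and 1477 CPM (adjusted p = 0.96), Cd83, the member with most UMIs, at 2485 and 2691 against 1549 and 2087 CPM (adjusted p = 0.0634), and Cd40 at 39.1 and 36.1 against 16.6 and 30.5 CPM (adjusted p = 0.405). Cd80 stood at 64.0 and 108 against 41.4 and 53.1 CPM (adjusted p = 0.166), and passed with replicate as a block (adjusted p = 0.00852; 1 of 22 alternatives, adjusted p up to 1.0).

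Class II genes are known to share a promoter element, the Y box, that lies shortly before the transcription start. The letters TGATTGG were searched on both strands in windows from 250 bases before to 50 bases after the start (RefSeq, GRCm38.p6), where 2568 of 32851 windows (7.82%) held them. Of the 5 class II genes outside the split genes that have a window, 4 held the letters: H2-DMb1 at 63 bases before the start, H2-DMb2 at 92, H2-Oa at 45 and H2-Ob at 59, all on the gene's strand. Neither of the 2 windows of H2-DMa held them, and of the genes used for the split H2-Aa and H2-Eb1 held them at 50 and 61 bases. A match is a description of the letters, and no binding was measured. The 150 bases before the start are shown for 3 of these genes because H2-DMb1 passed the threshold in every alternative and the others hold the same letters; capitals mark the searched letters. The windows are chr17:34153041-34153190 for H2-DMb1, chr17:34145099-34145248 for H2-DMb2 and chr17:34238755-34238904 for H2-Ob, all on the plus strand.
H2-DMb1: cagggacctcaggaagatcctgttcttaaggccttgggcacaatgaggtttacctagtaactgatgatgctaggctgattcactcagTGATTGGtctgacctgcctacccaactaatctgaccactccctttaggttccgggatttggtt
H2-DMb2: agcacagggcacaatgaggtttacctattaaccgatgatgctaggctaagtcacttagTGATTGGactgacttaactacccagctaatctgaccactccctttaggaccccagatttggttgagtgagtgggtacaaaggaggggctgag
H2-Ob: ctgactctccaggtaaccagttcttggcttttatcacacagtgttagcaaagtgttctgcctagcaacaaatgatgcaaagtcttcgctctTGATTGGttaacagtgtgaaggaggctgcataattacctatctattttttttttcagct

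Of 14 genes of MHC class I and peptide loading tested, 3 were higher and 0 lower (median log2 difference 0.52): H2-K1 at 1227 and 1480.4 CPM against 733 and 861 CPM (log2 difference 0.77 ± 0.15, SE, adjusted p = 0.00582, edgeR), H2-D1 at 1717 and 2069 against 1200.1 and 1308 CPM (0.59 ± 0.15, adjusted p = 0.0276), and H2-T23 at 309 and 399.9 against 145 and 200.2 CPM (1.05 ± 0.21, adjusted p = 0.00596). None of the 3 was called without the glia-rich cells, where the differences were 0.56, 0.39 and 0.80. None was called by UMI totals alone or without the higher MHC II cells of replicate 2 (adjusted p up to 0.612). H2-K1, H2-D1 and H2-T23 belong to a family of near-identical genes, so reads may have been split among them. B2m, the shared light chain, stood at 2132 and 2427 against 1642 and 1636 CPM and missed the threshold (adjusted p = 0.0518).

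Ccr2, the chemokine receptor by which monocytes leave the blood and enter tissue, was higher in the higher MHC II cells. It stood at 719.7 and 542 CPM in replicates 1 and 2 against 126 and 161 CPM in the lower MHC II cells (chr9:124101950-124113557, GRCm38, plus strand). The sets did not overlap, and the log2 difference was 2.15 ± 0.18 (SE, adjusted p = 3e-06, edgeR), 2.05 without the glia-rich cells, and past the threshold in each of 22 alternatives (adjusted p up to 0.00449). UMIs of Ccr2 were spread over cells: 76 of 92 and 53 of 72 higher MHC II cells held at least 1, against 26 of 93 and 29 of 73 lower MHC II cells. With every cell thinned to 1000 UMIs, 46.7% of the higher MHC II cells of replicate 1 held a UMI (95% exact binomial interval 36.3% to 57.4%) and 23.6% of those of replicate 2 (14.4% to 35.1%), and a repeat of the thinning with another seed gave 38.0% and 30.6%. The lower MHC II cells stood at 7.53% (3.08% to 14.9%) and 13.7% (6.77% to 23.8%). The remaining cells, which are at a similar median depth of 10611 and 10920.5 UMIs, stood at 0.025% and 0.036%. These intervals cover counting error only, and in replicate 2 the thinned shares of the 2 sets had overlapping intervals.

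Of 19 monocyte genes tested, 5 were higher (Ccr2, Lyz2, Itgam, Napsa, S100a4) and 0 lower, with a median log2 difference of 0.60, and without the glia-rich cells 2 were higher. Lyz2, a lysozyme of monocytes and macrophages, stood at 10909 and 9929 against 6548 and 5648 CPM (log2 difference 0.77 ± 0.14, SE, adjusted p = 0.00277, edgeR), and its call was lost without the glia-rich cells (0.53) and without 3 of the 4 profiles (adjusted p up to 0.188, without the higher MHC II cells of replicate 1). S100a4, a calcium-binding protein of motile cells, stood at 77.1 and 142 against 54.7 and 43.0 CPM (1.13 ± 0.25, adjusted p = 0.0144) and at 2.45 without the glia-rich cells, but its call was lost without 3 of the 4 profiles (adjusted p up to 0.546, without the higher MHC II cells of replicate 2). S100a4 stood at 284 and 253 CPM in the remaining cells and at 329 and 262 CPM in empty droplets, above both sets of macrophages. The call of S100a4 was also lost without the cells with a defining marker of another leukocyte type (0.61, adjusted p = 0.477, edgeR). Itgam, a chain of complement receptor CR3, stood at 169.6 and 167 against 113 and 114 CPM (0.56 ± 0.15, adjusted p = 0.0452), and its call was lost with replicate as a block (adjusted p = 0.0622; 2 of 22 alternatives called it, adjusted p up to 1.0). Some genes of classical blood monocytes were at the floor: Ly6c2 had 0 and 2 UMIs, Plac8 0 and 1, and Chil3 1 and 0 in the higher MHC II cells, while Ly6c2 stood at 340.02 and 385 CPM in the leukocytes with little C1q. Cd14, of the same list, stood at 1039 and 872 CPM against 779 and 773 CPM in the lower MHC II cells (adjusted p = 0.531, edgeR).

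Genes listed as dendritic cell markers rose in part. Of 17 tested, 4 were higher (Cd209a, Dpp4, Naaa, Plbd1) and 0 lower, with a median log2 difference of 1.25. Without the glia-rich cells 4 were higher as well, with a median of 0.63, and 1 was higher without the cells with most RNA of other types. The latter were the highest of 3 groups of C1q macrophages by share of marker RNA of glia, fibroblasts, mural cells, endothelial cells and neurons. Their removal left 61 against 62 and 48 against 49 cells, fewer than removal of the glia-rich cells. Whether calls lost there reflect fewer cells was not tested. Plbd1, a phospholipase of myeloid cells, stood at 356 and 333 against 159 and 129 CPM (log2 difference 1.25 ± 0.19, SE, adjusted p = 0.000586, edgeR; 0.98 without the glia-rich cells), and was held by 77 of 92 and 63 of 72 cells against 69 of 93 and 43 of 73 lower MHC II cells. Cd209a, a C-type lectin, had 35 and 15 UMIs in 10 and 5 cells against 1 and 0 UMIs, 66.9 times the level of the lower MHC II cells with a counting interval of 11.5 to 2694 (adjusted p = 0.000392). Dpp4, a surface peptidase, had 16 and 9 UMIs against 1 and 1, 16.7 times (4.17 to 146; adjusted p = 0.00772), and Naaa, a lipid amidase, 34 and 49 against 21 and 18 (1.51 ± 0.31, adjusted p = 0.00697). The calls of Dpp4 and Naaa were each lost without 3 of the 4 profiles, with adjusted p up to 0.163 and 0.261. The summed list stood at 761 and 808 CPM against 384 and 457 CPM, with Plbd1 the gene with most UMIs, and at 3588 and 3392 CPM in the leukocytes with little C1q. When the cells with a defining marker of another leukocyte type were left out, 180 genes were higher and 413 lower, Ccr2, H2-DMa, H2-DMb1 and Cd209a among the higher ones. The part of dendritic cells that hold no UMI of such a marker was not tested.

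Some genes of the macrophages that line vessels and coverings of nerve and brain, which are known for Lyve1 and for scavenger receptors, were lower. Of 15 tested, 7 were lower in the higher MHC II cells, 1 was higher (Mgl2) and 7 did not pass, with a median log2 difference of -0.63. Without the glia-rich cells 7 were lower and 0 higher, and by UMI totals alone 11 were lower and 0 higher. The calls were not firm to single profiles: between 0 (without the lower MHC II cells of replicate 2) and 2 (without those of replicate 1) of the 15 were lower with 1 of the 4 profiles left out. Stab1, a scavenger receptor (chr14:31139013-31168641, GRCm38, minus strand), stood at 263 and 279 CPM against 375 and 381 CPM, with no overlap (log2 difference -0.48 ± 0.13, SE, adjusted p = 0.0461, edgeR; -0.74 without the glia-rich cells). With replicate as a block the call was lost (adjusted p = 0.064; 13 of 22 alternatives called it, adjusted p up to 0.922). F13a1, a coagulation factor chain, stood at 255 and 293 against 384 and 487 CPM (-0.67 ± 0.18, adjusted p = 0.0492; -0.88 without), and Igf1, a growth factor, at 97.2 and 122 against 185 and 149 CPM (-0.63 ± 0.17, adjusted p = 0.0497; -0.89 without). F13a1 was called in 8 of 22 alternatives and Igf1 in 12. Neither was called without the cells with a defining marker of another leukocyte type (-0.445 and -0.624, adjusted p = 0.332 and 0.0922, edgeR). Cbr2, a carbonyl reductase, stood at 53.4 and 41.7 against 120.1 and 106 CPM (-1.25 ± 0.22, adjusted p = 0.00278; -1.53 without), and Cd163, the haemoglobin scavenger receptor, at 64.0 and 58.3 against 96.9 and 132 CPM (-0.88 ± 0.24, adjusted p = 0.0431; -1.12 without).

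The namesake genes rested on few cells. Folr2, a folate receptor, had 1 and 6 UMIs against 37 and 29 (log2 difference -2.81 ± 0.60, SE, adjusted p = 0.0109, edgeR; -3.62 without the glia-rich cells), held by 6 lower MHC II cells in each replicate. Lyve1, a hyaluronan receptor, had 0 and 0 UMIs against 9 UMIs in 1 cell of replicate 1 and 14 UMIs in 3 cells of replicate 2, which is at least 5.73-fold lower with a floor of 3 counts over both samples (adjusted p = 0.012), and was called without the glia-rich cells (adjusted p = 0.0301). Timd4, Fcna, Cd209f and Cd209g had no UMI in the higher MHC II cells, and Timd4 had 1 UMI in the lower MHC II cells. Mrc1, the mannose receptor and the list's gene with most UMIs, stood at 1113 and 1108 against 1068 and 1381 CPM and missed the threshold (adjusted p = 0.835). Mgl2, a galactose lectin, was at 832 and 1005 against 452 and 569 CPM (0.85 ± 0.16, adjusted p = 0.00337), and lost its call without the glia-rich cells (0.74) and without 2 of the 4 profiles (adjusted p up to 0.194, without the higher MHC II cells of replicate 2). The list as a whole summed to 4246 and 4225 CPM in the higher and 4602 and 5178 CPM in the lower MHC II cells. Folr2, Lyve1, Cbr2 and Cd163 are named outside the rule, after their values were seen.

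**Figure D3:**
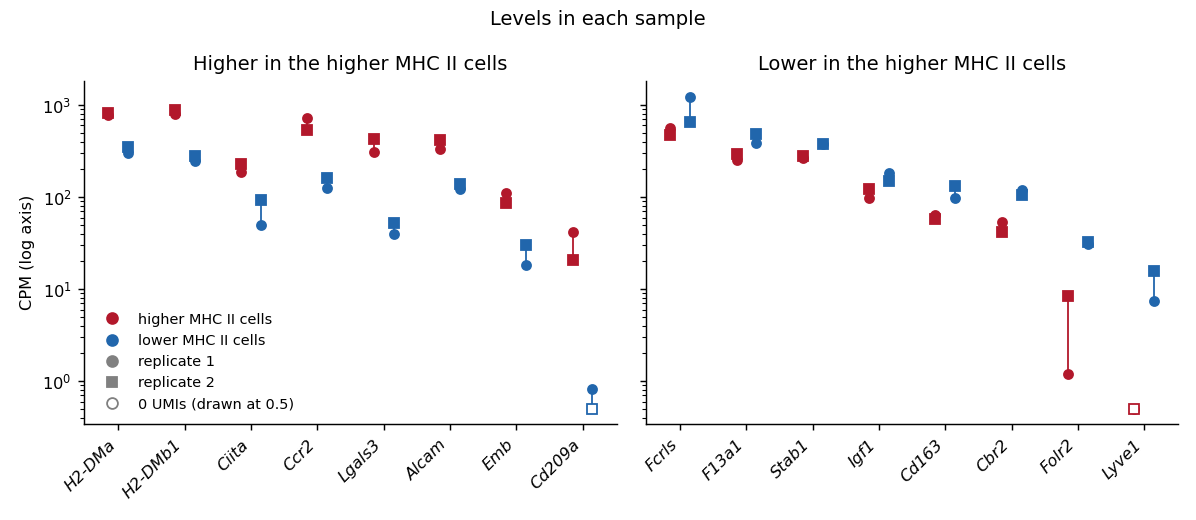
Levels of genes outside the split genes in CPM (log axis) for replicates 1 and 2 of the higher and lower MHC II cells, 1 point per sample. Both samples of the higher MHC II cells lie above both of the lower MHC II cells for the 8 genes on the left and below them for the 8 on the right; a gene with 0 UMIs is drawn as an open point.

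Most macrophage identity genes did not pass between the 2 sets. Of 20 tested, 2 were higher (Tyrobp, Ctss) and 0 lower, and neither was called without the glia-rich cells. Csf1r stood at 867 and 865 against 689 and 873 CPM (log2 difference 0.15 ± 0.14, SE, adjusted p = 0.767, edgeR), Cx3cr1, the fractalkine receptor, at 771 and 589 against 740.4 and 615 CPM (0.00 ± 0.15, adjusted p = 1.0), and Ms4a7 at 658 and 605 against 683 and 559 CPM (0.02 ± 0.15, adjusted p = 1.0). Adgre1, which encodes the F4/80 antigen, differed more between replicates than between sets, at 962 and 767 against 1243 and 634 CPM. Tyrobp, a signalling adaptor, stood at 1952 and 2205 against 1425 and 1343 CPM (0.59 ± 0.13, adjusted p = 0.0134), and 0.25 without the glia-rich cells; its call was lost without any of the 4 profiles (adjusted p up to 0.443).

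Of 13 genes enriched in microglia of the brain, 2 were lower (Fcrls, Sparc), 1 was higher (Cst3) and 10 did not pass, with a median log2 difference of -0.06. Fcrls, an Fc receptor-like scavenger receptor (chr3:87250758-87263738, GRCm38, minus strand), stood at 569 and 468 CPM against 1235 and 650.2 CPM (-0.87 ± 0.21, SE, adjusted p = 0.0259, edgeR; -1.11 without the glia-rich cells), and passed in 16 of 22 alternatives. Replicate 1 of the lower MHC II cells was high, and the call was lost without it (adjusted p = 0.392) and without either profile of the higher MHC II cells. Thinned to 1000 UMIs, 32.6% and 27.8% of the higher and 60.2% and 42.5% of the lower MHC II cells held a UMI of Fcrls, against 0.025% and 0.012% of the remaining cells. Sparc, a matrix protein that ganglion glia also make at 2131 and 2169 CPM in the remaining cells, stood at 43.9 and 76.4 against 218 and 326 CPM, and fell from -2.19 to -0.28 without the glia-rich cells, where the call was lost. Tmem119 and P2ry12 stood at 74.7 and 54.2 against 65.4 and 71.2 CPM and at 130.4 and 83.3 against 80.3 and 121 CPM (adjusted p = 1.0 and 0.913). Sall1 had no UMI in the higher MHC II cells. Cst3, an inhibitor of cysteine proteases, stood at 7116 and 6262 against 4774 and 4893 CPM (0.47 ± 0.11, adjusted p = 0.0244), and its call was lost without the glia-rich cells and without any of the 4 profiles (adjusted p up to 0.6).

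Among 20 lysosome genes tested, 4 were higher (Ctsh, Ctsz, Psap, Npc2) and 1 lower (Cd63), with a median log2 difference of 0.16, and without the glia-rich cells 2 were higher and 0 lower. Psap, the precursor of the saposins that help break down sphingolipids, stood at 1498 and 1665 against 694 and 888 CPM (1.00 ± 0.14, SE, adjusted p = 0.000375, edgeR; 0.78 without the glia-rich cells), and passed in 20 of 22 alternatives. Npc2, which moves cholesterol out of the lysosome, stood at 1075 and 1232 against 579.8 and 689.8 CPM (0.86 ± 0.14, adjusted p = 0.00099; 0.64 without), and lost its call without the higher MHC II cells of replicate 2 (adjusted p = 0.086). The calls of Ctsh (0.65 ± 0.15) and Ctsz (0.55 ± 0.14), both cathepsins, were lost without the glia-rich cells. Of 21 genes of iron and lipid handling, 3 were higher (Fth1, Lgals3, Pltp) and 2 lower (Slc40a1, Cd163), and without the glia-rich cells 1 was higher (Lgals3) and 1 lower (Cd163). Fth1, the ferritin heavy chain, stood at 13363 and 12004 against 7359.7 and 7437 CPM (0.78 ± 0.12, adjusted p = 0.000563), and lost its call without the glia-rich cells (0.45) and without the higher MHC II cells of replicate 1 (adjusted p = 0.0974). Slc40a1, the iron exporter ferroportin, had no UMI against 10 UMIs in 6 cells and 8 UMIs in 5 cells, at least 4.48-fold lower (adjusted p = 0.0252), and lost its call without the glia-rich cells (adjusted p = 0.0727) and with replicate as a block (adjusted p = 0.0695; 7 of 19 alternatives called it, adjusted p up to 0.212).

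Among 18 chemokine genes tested, Ccl6 and Ccl9 were higher and 0 lower, with a median log2 difference of 0.48, and without the glia-rich cells 2 were higher and 1 lower, with the median at -0.24. Ccl9 stood at 219 and 318 against 68.7 and 104 CPM (1.66 ± 0.21, SE, adjusted p = 0.000139, edgeR; 1.19 without the glia-rich cells) and Ccl6 at 189 and 179 against 95.2 and 76.9 CPM (1.08 ± 0.19, adjusted p = 0.00273; 0.95 without), and the call of Ccl6 was lost without 3 of the 4 profiles (adjusted p up to 0.113, without the higher MHC II cells of replicate 1). Without the cells with most RNA of other types neither gene was called, at log2 differences of 0.93 for Ccl9 and 0.99 for Ccl6. Ccl4, the member with most UMIs, stood at 4495 and 5337 against 3092 and 3331 CPM and missed the threshold (adjusted p = 0.0836). Of 24 cytokine receptor genes, 5 were higher and 0 lower. Besides Ccr2, these were Cxcr4, Csf2ra, Tgfbr1 and Ifngr2. Without the glia-rich cells 2 were higher, Ccr2 and Cxcr4, while Tgfbr1 (0.28) and Ifngr2 (0.19) were not called. Cxcr4, the receptor for Cxcl12, stood at 209 and 232 against 108 and 112 CPM (1.00 ± 0.16, adjusted p = 0.000824; 0.88 without the glia-rich cells, where it was called). The difference of Cxcr4 was 0.31 and not called without the cells with most RNA of other types, and 16 of 22 alternatives called it. Csf2ra, a chain of the GM-CSF receptor, stood at 196 and 193 against 101 and 128 CPM (0.78 ± 0.16, adjusted p = 0.00774; 0.41 without, where it was not called), and its call was also lost without 3 of the 4 profiles (adjusted p up to 0.136).

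Of 23 cytokine and growth factor genes, 3 were higher (Il1b, Osm, Pdgfb) and Igf1 was lower, and without the glia-rich cells 0 were higher and Igf1 was lower. Il1b, an inflammatory cytokine, stood at 2303 and 2471 against 933 and 1539 CPM (0.95 ± 0.18, SE, adjusted p = 0.00377, edgeR), and was held by 55 of 92 and 44 of 72 against 40 of 93 and 39 of 73 cells. Its call was lost without the glia-rich cells (0.30) and without 3 of the 4 profiles (adjusted p up to 0.158). Without the cells with most RNA of other types, the log2 difference of Il1b turned to -0.11. Of 27 immediate early and stress genes, which dissociation can raise, 4 were higher (Junb, Zfp36, Dusp1, Nfkbia) and Klf2 was lower, and without the glia-rich cells 0 were higher and Klf2 was lower. Klf2, a transcription factor of quiescent cells, stood at 564 and 411 against 853 and 662 CPM (-0.63 ± 0.17, adjusted p = 0.039; -0.92 without the glia-rich cells), and its call was lost without 2 of the 4 profiles (adjusted p up to 0.34). Fos was at 3396 and 2814 against 2405 and 3110 CPM (adjusted p = 0.711), and Hspa1a at 2274 and 2387 against 1432 and 2022 CPM (adjusted p = 0.23; with replicate as a block 0.00416, the 1 call among 22 alternatives, adjusted p up to 0.893). The list summed to 31202 and 27776 CPM in the higher, 22241 and 25196 in the lower MHC II cells and 8079 and 9007 in the remaining cells. The part of dissociation in these differences was not tested.

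Of 19 receptors for phagocytosis and complement, 5 were higher (Axl, Fcgr2b, Fcgr4, Itgam, Tlr2) and Stab1 was lower, and without the glia-rich cells 0 were higher and 2 lower. Fcgr2b, the inhibitory Fc receptor, stood at 349 and 393 against 187 and 227 CPM (0.85 ± 0.19, SE, adjusted p = 0.0148, edgeR; 0.66 without). Axl, a receptor for apoptotic cells, stood at 257 and 292 against 125 and 183 CPM (0.85 ± 0.20, adjusted p = 0.0165; 0.63 without). Mertk, its relative, stood at 236 and 244 against 246 and 323 CPM (adjusted p = 0.677). Of 13 complement genes outside C1q, C3 was higher, with 19 and 20 UMIs in 7 and 9 cells against 3 and 5 UMIs (adjusted p = 0.0172), and was not called without the glia-rich cells. As 1 gene of 13, it is not read as a result about the list beside the 4.53% higher among genes with 10 UMIs. Of 25 interferon response genes, Irf7 was higher, at 41.5 and 48.6 against 11.6 and 26.0 CPM (adjusted p = 0.0459), a share of the list close to the 4.53% higher among genes with 10 UMIs, and none was called without the glia-rich cells. Of 23 transcription factors of macrophages, Zeb2, Runx3 and Pparg were higher and Klf2 was lower, and without the glia-rich cells 0 were higher and Klf2 was lower. Pparg, a lipid-activated factor, stood at 145 and 147 against 54.7 and 63.3 CPM (1.32 ± 0.27, adjusted p = 0.0084; 1.06 without). The calls of C3, Pparg, Fcgr2b and Axl were also lost without at least 3 of the 4 profiles, with adjusted p up to 0.316.

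Transcripts of dividing cells were sparse, and a cell without a UMI of them cannot be read as not dividing. Of 15 proliferation genes, 0 were higher and 1 was lower (Stmn1, not called without the glia-rich cells), and Mki67 had 5 and 6 UMIs in 4 and 5 cells against 29 UMIs in 7 cells, 20 of them in 1 cell, and 7 UMIs in 6 cells (adjusted p = 0.649, edgeR). Endothelin genes were near the floor: the 7 genes summed to 24.9 and 33.3 CPM in the higher MHC II cells, and Edn2, Edn3 and Ece2 had no UMI. Ednrb, the endothelin B receptor, which ganglion glia carry at 712 and 691 CPM in the remaining cells, had 10 UMIs in 10 cells and 12 UMIs in 10 cells of the higher MHC II cells, at 11.9 and 16.7 CPM against 144 and 114 CPM in the lower MHC II cells and 587 and 544 CPM in empty droplets. The log2 difference of -3.21 ± 0.40 (SE, adjusted p = 0.000108) became -0.11 without the glia-rich cells and was not called.

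**Figure D4:**
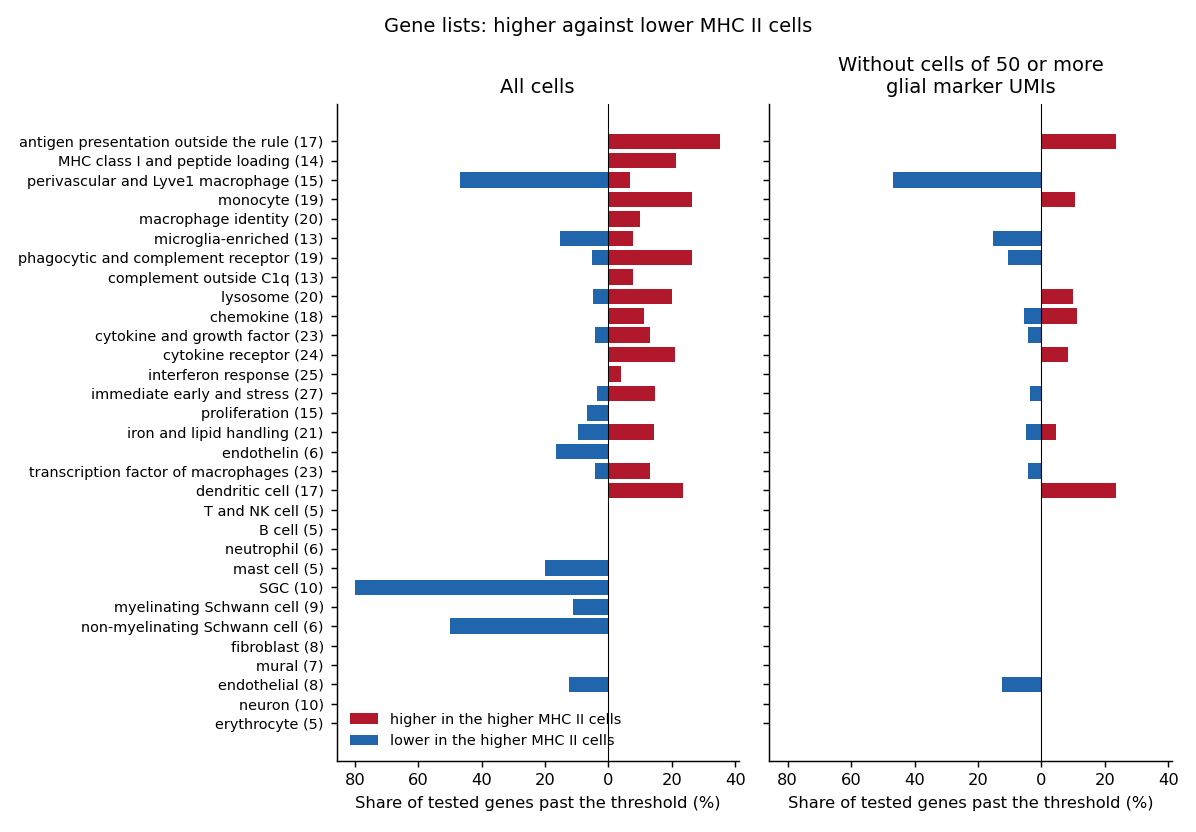
Share of the tested genes of each list (number in brackets) that were past the threshold, in percent, to the right of 0 for genes higher and to the left for genes lower in the higher MHC II cells, with all cells and without cells of 50 or more glial marker UMIs. The bars of SGC and Schwann cell lists are gone without those cells, while those of the dendritic cell list and of the perivascular genes on the lower side keep their length.

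By a rule of fold change among genes with at least 20 CPM and no overlap between sets, the 12 genes that rose most in the higher MHC II cells included Retnla, Cd209a, Ear2, Gpr141, Il7r, Dcstamp, Slc7a11, Grap2, Mmp12, Gda and Lgals3. Most of them rested on few cells. Retnla, a secreted resistin-like protein of alternatively activated macrophages, had 276 UMIs in 2 cells of replicate 1 and 572 UMIs in 5 cells of replicate 2 against 1 and 1 UMI, 567 times the level of the lower MHC II cells with a counting interval of 157 to 4692 (adjusted p = 2.3e-05, edgeR); 1 cell of each replicate held 213 and 266 of these UMIs. Mmp12, a macrophage elastase, had 198 and 26 UMIs against 3 and 22, with 112 of the 198 in 1 cell, and its call was lost without the higher MHC II cells of replicate 1 (adjusted p = 0.631) and without the lower MHC II cells of replicate 1. Ear2, a ribonuclease, had 44 and 42 UMIs in 6 and 8 cells against 0 and 4. Dcstamp, a fusion protein of multinucleated macrophages and osteoclasts, had 8 UMIs in 1 cell and 31 UMIs in 3 cells, against 0 and 3. Of the 12 genes, Il7r, Dcstamp and Slc7a11 were not called without the glia-rich cells, and Dcstamp, Slc7a11, Mmp12 and Gda lost their call without at least 1 profile. Without the cells with most RNA of other types, the log2 differences of Ear2 (2.415), Gpr141 (2.37), Grap2 (0.96) and Il7r (1.66) were not called. Nor were those of Mmp12 (2.74), Gda (2.44), Dcstamp (0.35) and Slc7a11 (1.91).

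Lgals3 was spread more widely among these. Lgals3, a galectin (chr14:47367751-47386160, GRCm38, plus strand), stood at 311 and 426 CPM against 39.8 and 52.0 CPM, with no overlap (3.02 ± 0.21, SE, adjusted p = 7.04e-07, edgeR; 3.00 without the glia-rich cells, and past the threshold in 21 of 22 alternatives, with adjusted p up to 0.0508). It missed the threshold without the cells with most RNA of other types, where the log2 difference was 1.74. Of the 262 UMIs of replicate 1, 112 were in 1 cell, and 32 of 92 and 27 of 72 higher MHC II cells held a UMI against 12 of 93 and 11 of 73. Thinned to 1000 UMIs, 10.9% and 13.9% of the higher MHC II cells held a UMI, with intervals that overlapped those of the lower MHC II cells (6.45% and 5.48%) and stood beside 4.08% and 4.16% in the remaining cells. Gpr141 had 23 and 15 UMIs in 12 and 9 cells against 0 and 2, Il7r, the receptor for interleukin 7, 28 and 24 in 11 and 9 cells against 2 and 1, and Grap2, an adaptor of lymphocyte signalling, 37 and 28 in 19 and 12 cells against 3 and 3.

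The 12 genes that fell most were Kcnh8, Ephb1, Adcy2, Fam171a1, Tenm3, Nlgn1, Wwtr1, Ptprt, Grik2, Fbxl7, Sorcs2 and Ppargc1a, and none of the 12 was called without the glia-rich cells. All 12 were at higher levels in the remaining cells than in either set of macrophages. As said of the glial RNA above, RNA of other cells lowers a cell's score, so these differences are not independent of the split. Kcnh8, a potassium channel, had 0 and 2 UMIs against 45 and 57, 38.1 times less with a counting interval of 10.3 to 319 (adjusted p = 0.00473, edgeR), and stood at 291 and 269.7 CPM in the remaining cells. In the same way, 8 of 10 SGC markers and 3 of 6 markers of non-myelinating Schwann cells were lower in the higher MHC II cells, and 0 of these were called without the glia-rich cells. The SGC markers summed to 151 and 183 CPM in the higher, 849.8 and 1056 in the lower MHC II cells and 5716 and 5390.3 in the remaining cells. Egfl7, an endothelial gene, and Kit, a mast cell gene, were lower as well, with 2 and 5 UMIs against 25 and 31 and with 1 and 2 against 13 and 16, and of these Egfl7 was called without the glia-rich cells. None of the markers of fibroblasts (8 tested), mural cells (7), neurons (10) and erythrocytes (5) passed.

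Over the 22 alternatives, 5 of the 397 genes called higher were called in every one (Ccr2, Fxyd5, H2-DMa, H2-DMb1, Retnla) and 0 of the 381 called lower. In all but at most 2 alternatives, 15 were called higher and 2 lower (Eda, Stard8). These genes were picked after their values were seen. Fxyd5, a regulator of the sodium pump (chr7:31032722-31042481, GRCm38, minus strand), stood at 656 and 618 against 253 and 283 CPM (1.25 ± 0.14, SE, adjusted p = 4.85e-05, edgeR; 1.00 without the glia-rich cells), and was held by 88 of 92 and 68 of 72 cells against 76 of 93 and 63 of 73 lower MHC II cells. Sowahc stood at 191 and 169 against 48.0 and 54.3 CPM (1.83 ± 0.17, adjusted p = 7.38e-06; 1.63 without), Slamf7, a receptor of the SLAM family, at 403 and 497 against 160 and 130.04 CPM (1.62 ± 0.18, adjusted p = 4.76e-05; 1.13 without), and Emb, an adhesion protein, at 111 and 86.1 against 18.2 and 30.5 CPM (2.08 ± 0.24, adjusted p = 6.7e-05; 1.92 without). Alcam and Cd44, adhesion molecules of activated leukocytes, stood at 337 and 415 against 123 and 138 CPM and at 236 and 283 against 95.2 and 80.3 CPM (1.53 ± 0.16 and 1.55 ± 0.19; 1.19 and 1.44 without), and were called in 19 of 22 alternatives each. Stard8, a GTPase regulator, was lower, at 51.0 and 47.2 against 117 and 97.3 CPM (-1.14 ± 0.19, adjusted p = 0.00163; -1.23 without), as was Eda, a ligand of the tumour necrosis factor family, with 3 and 2 UMIs against 53 and 39 (-3.78 ± 0.44, adjusted p = 6.48e-05; -3.44 without).

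The C1q macrophages of each sample were also ordered by the MHC II score and cut into 4 groups of 46 or 47 cells in replicate 1 and 36 or 37 in replicate 2, to see where along the score these genes changed. The values are CPM by library size in the summed group, are given with no test, and the groups share the score that set the split. H2-DMb1 stood at 116, 416, 559 and 819 CPM from the lowest to the highest group in replicate 1 and at 127, 503, 749.6 and 772 in replicate 2. Ccr2 stood at 9.65, 267, 622 and 604 in replicate 1 and at 81.1, 275, 399 and 549 in replicate 2. Both genes were thus low in the lowest group, and Ccr2 was at a similar level in the upper 2 groups of replicate 1. Lgals3 stood at 20.9, 64.1, 334 and 192 in replicate 1 and 15.3, 102, 343 and 401 in replicate 2, and 1 cell of the third group of replicate 1 held 112 of its UMIs there. Fcrls fell from 1720 through 773 and 589 to 376 in replicate 1 and from 839 through 503 and 383 to 433 in replicate 2. Csf1r stayed between 631 and 806 in replicate 1 and between 706 and 947 in replicate 2. Ednrb, for the glial RNA, stood at 108, 196, 9.87 and 10.3 in replicate 1 and at 206, 18.3, 16.4 and 12.5 in replicate 2.

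**Figure D5:**
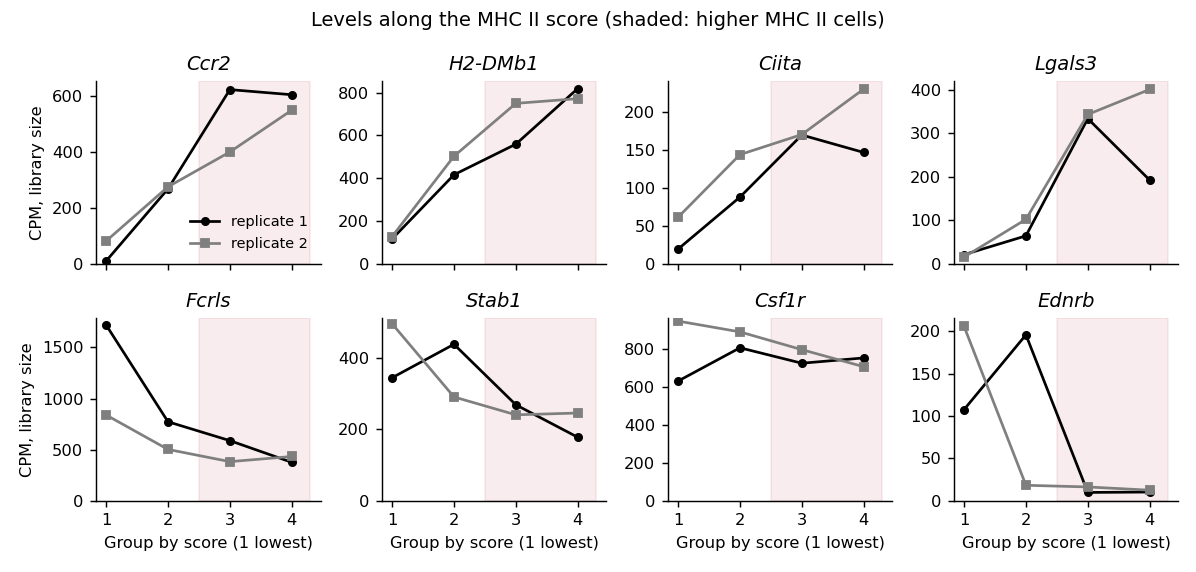
Summed level (CPM by library size) of genes outside the split genes in 4 groups of C1q macrophages ordered by the MHC II score, lowest to highest, in replicates 1 and 2. H2-DMb1 and Ccr2 are lowest in the lowest group of both replicates, Fcrls is highest there, and Csf1r shows no order shared by the replicates.

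Against the leukocytes with little C1q, whose profile held transcripts of neutrophils, dendritic cells and B cells, 1336 genes were higher (7.0%) and 1328 lower (6.96% of 19075 genes tested) in the higher MHC II cells. Without the higher MHC II cells of replicate 1 these were 794 and 854, and without the leukocytes of replicate 2, 841 were higher. By UMI totals alone 1008 were higher and 1899 lower. By the same rule, the 6 genes that rose most were Slco2b1, Tmem119, Ltc4s, B3galnt1, Ermap and Adam33, each with no UMI in the leukocytes. Slco2b1, an organic anion transporter, had 199 and 119 UMIs, at least 109-fold higher (adjusted p = 2.01e-09, edgeR), Tmem119 63 and 39 UMIs, at least 35.0-fold higher, and Ltc4s, the leukotriene C4 synthase, 57 and 24 UMIs, at least 27.8-fold higher. The 6 that fell most were Igkc, Camp, Retnlg, Elane, Mpo and Slpi, an immunoglobulin light chain and genes of neutrophils and their precursors, each with no UMI in the higher MHC II cells. Camp was at 856 and 386 CPM in the leukocytes, at least 305-fold lower in the higher MHC II cells, and Mpo at 198 and 158 CPM, at least 91.2-fold lower.

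Genes that differed between the 2 sets of macrophages were also looked up in these leukocytes. Of the 17 dendritic cell genes 0 were higher and 13 lower than in the leukocytes, and of the 17 class II pathway genes 5 were higher and 6 lower. H2-DMa stood at 629 and 648 CPM in the leukocytes and did not differ past the threshold (log2 difference 0.32 ± 0.14, SE, adjusted p = 0.145, edgeR), while H2-DMb1, at 573 and 459.7 CPM, was higher in the macrophages (0.71 ± 0.17, adjusted p = 0.00716). Ccr2 stood at 415 and 351 CPM in the leukocytes and was higher in the macrophages (0.73 ± 0.17, adjusted p = 0.00447). H2-Oa was lower in the macrophages, at 11.9 and 13.9 against 90.9 and 94.7 CPM (-2.86 ± 0.39, adjusted p = 2.67e-05), as were Cd209a (-4.35 ± 0.24), Alcam (-1.18 ± 0.15) and Cd44 (-1.24 ± 0.17). Among the genes named as rising most, Ear2 (-0.97), Gpr141 (-2.10), Grap2 (-1.05), Gda (-2.55) and Lgals3 (-0.78) were also lower than in the leukocytes. Retnla (2.47) and Mmp12 (3.65) were higher, and Il7r, Dcstamp and Slc7a11 did not differ past the threshold. Stab1 and Ms4a7 were nearly absent from the leukocytes, with 1 UMI of either gene in each sample. The ratio of levels was 218 for Stab1 (counting interval 59.97 to 1806) and 511 for Ms4a7 (141 to 4223).

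Against the remaining cells, 3508 genes were higher (18.4%) and 4876 lower (25.6%) in the higher MHC II cells, and 3105 were lower without the higher MHC II cells of replicate 1, and 2411 and 2416 without the remaining cells of replicate 1 and of replicate 2, where 10182 genes were tested. By UMI totals alone 2786 were higher and 6773 lower. The 6 genes that rose most were Cd300ld3, Cybb, Skint3, Cd86, Bcl2a1b and C3ar1. Cybb, the catalytic chain of the phagocyte NADPH oxidase, stood at 1460 and 1465 CPM against 0.255 and 0.343 CPM, 4815-fold higher (log2 difference 12.23 ± 0.25, SE, adjusted p = 1.77e-17, edgeR), and C3ar1, a receptor for the complement fragment C3a, at 477 and 476 CPM against 0.097 and 0.134 CPM (11.96 ± 0.25, adjusted p = 2.05e-17). Cd300ld3 had 57 and 40 UMIs against 0 and 2, and Skint3 8 and 23 against none. All 10 SGC, 8 fibroblast, 8 endothelial and 10 neuron genes were lower than in the remaining cells.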

How the data were processed

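Single cells of L4 and L5 DRG from 2 samples were profiled with 10x Chromium 3' v3.1 chemistry. The authors deposited raw UMI count matrices made with Cell Ranger (7.1.0 per the file headers; genome mm10 per the submitters' notes) holding all barcodes, and no cell annotation was used here. Of 32285 gene identifiers, 32235 matched the reference annotation. Counts were summed per sample and cell set into 8 profiles and fitted with edgeR 4.0.16 in R 4.3.3 (TMM, glmQLFit and glmQLFTest, prior count 0.125), on genes that reached 10 counts in 2 or more profiles. Benjamini-Hochberg adjustment ran over all genes, with a threshold of 0.05, and every adjusted p is from this fit unless an alternative is named. The 13 genes of the selection were left out of the tests. Differences are log2, and their SE was derived from the edgeR test statistic. The spread behind it was shared over the 8 profiles (4 residual degrees of freedom). For genes with no UMI in a set, a floor of 3 counts over both samples gave a bound, and for 1 to 3 UMIs a ratio with an exact 95% counting interval was taken. The fit was tested on simulated data. Named genes were, per list, up to 4 past the threshold with the highest mean CPM, and the 12 (6 for the other comparisons) with the largest fold change at 20 CPM or more and with no overlap between sets; others named were chosen after their values were seen. The members and lists were chosen with earlier results of these data known. Sets with the same replicate number share a library; their deviations correlated at 0.07 to 0.13 over 2297 genes. The 2 libraries were not copies (chi-square per degree of freedom 14.5 over 19642 genes). Empty droplets were barcode ranks 45001 to 90000. Doublets were not called. A few genes that the rules would name are not reported here.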

Additional observations from a re-analysis of the deposited data

How the results depend on the processing

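The comparison of higher with lower MHC II cells depended most on the processing. Against 397 genes higher and 381 lower, 124 higher and 155 lower were called at C1q of at least 50 per 10000, 147 and 337 with the highest against the lowest of 3 score groups, 81 and 98 with the split made within groups of equal UMIs, 15 and 13 without the cells with most RNA of other types, 180 and 413 without cells with a defining leukocyte marker, 26 and 24 without both, 78 and 42 without the glia-rich cells, 53 and 87 with RNA of empty droplets subtracted, 18 and 8 with each cell thinned, 113 and 543 without TMM, 200 and 369 with no filter on low counts and 191 and 328 with the 4 profiles alone; the cause was not tested, though thinning and removal leave fewer UMIs. With the replicate block, pairing sets of 1 library, 542 were higher and 585 lower, and DESeq2 gave 521 and 500. Leaving out 1 profile gave 60 to 231 higher and 101 to 258 lower, where the lone sample is assumed to vary like the others. Against leukocytes, thinning gave 284 higher and 124 lower, and leaving out 1 profile 794 to 930 higher and 854 to 1319 lower. Against the remaining cells, thinning gave 1183 and 2004, and leaving out 1 profile 2411 to 3572 lower. Without thinning, 82.6% and 73.6% of higher MHC II cells held a UMI of Ccr2. Among named genes called with all cells, log2 differences changed sign without the glia-rich cells for Ephb1 (0.147), Fam171a1 (0.148), Ptprt (0.369), Matn2 (0.02) and Chl1 (0.017). They changed sign without the cells with most RNA of other types for Ptprt (0.62), Il1b (-0.112), Tgfbr1 (-0.31), Nfkbia (-0.009), Ednrb (0.081) and Ptprz1 (0.204), and without those and marker cells for Ptprt (0.634), Tgfbr1 (-0.418), Ednrb (0.096) and Ptprz1 (0.367). Csf2ra changed sign with thinning (-0.052). Over the named genes and alternatives, 3100 values stayed on their side of the threshold, 809 fell short of it, 27 passed it newly and 16 of called genes reversed. Named genes that were not called could change sign as well. Without the glia-rich cells these included Csf1r (-0.12), Cd86 (-0.287), Cd14 (-0.023), Fos (-0.069) and Ms4a7 (-0.324). The replicate block ended the calls of Itgam, Slc40a1 and Stab1. The planned removal of cells with other leukocyte markers left 0 cells in a profile and was not run. Alternatives chosen after the data were seen were removal of marker cells, with and without the cells with most RNA of other types, removal of glia-rich cells, and the block with the 4 profiles alone (313 higher, 460.0 lower).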
